A study of Mus musculus with 9 samples.

Results

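The metabotropic glutamate receptors are membrane receptors through which glutamate, the main excitatory transmitter of the brain, acts on G proteins instead of opening an ion channel. Their RNA levels were followed here in 6 genes, Grm2, Grm3, Grm4, Grm5, Grm7 and Grm8, chosen by gene name among the 54532 genes listed in each table. All 6 were found, and each was a protein-coding gene at the same position in the GENCODE M21 annotation. Grm6, a receptor of the same family known from retinal bipolar cells, was listed at 0 in every library.

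Receptors of this family fall into 3 groups by sequence and signalling. Group I (here Grm5) couples to Gq proteins, which activate phospholipase C and release calcium from internal stores, and sits mostly on the postsynaptic side of the synapse. Group II (Grm2 and Grm3) and group III (Grm4, Grm7 and Grm8) couple to Gi/o proteins, which lower cyclic AMP and act on potassium and calcium channels, and on nerve terminals they hold back transmitter release. In the hippocampus Grm5 is abundant in pyramidal cells and is needed for several forms of synaptic plasticity, Grm3 is also made by astrocytes, and the protein of Grm7 is placed at the active zone of the terminal.

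RNA was sequenced from the hippocampus of C57BL/6 mice in 3 groups with 3 libraries each. The mice were labelled male and were bought at 6 to 8 weeks of age. Con mice ate a standard diet, and HMD mice ate a diet high in methionine, the amino acid that precedes homocysteine in its cycle, for 8 weeks. Bet+HMD mice ate the same methionine diet for 8 weeks and were then given betaine, from which homocysteine can take a methyl group to become methionine again, at 2.5% (w/v) in their drinking water for 2 weeks. All mice carried the wild-type genome as far as the labels say, and the diet itself is the model of high homocysteine. The strain entry of the Bet+HMD samples reads C57BL/6, C57BL/7 and C57BL/8 for replicates 1, 2 and 3. The Con columns of the tables are headed COL, a match inferred from the prefixes of the other groups.

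Expression was given as FPKM, the number of sequenced fragments scaled to the length of the gene and to the size of the library. Levels can then be compared between genes within a library. A comparison between libraries also depends on how they are scaled to each other, and other scalings were therefore run. An earlier table held Con and HMD, and a later table held the same 6 samples again together with Bet+HMD. The earlier table served HMD against Con, and levels in the paragraphs on that comparison are from it. The later one served the other 2 comparisons, and all other levels below, figures included, are from it. Reads assigned to genes per library numbered 16449388 to 18566712 (earlier table) or 16031464 to 18291952 (later table). The Bet+HMD libraries stood apart from the other 6: their FPKM summed to 249135 to 258514, against 288439 to 307899 in Con and HMD. They appear in the later table only, so a difference between preparations and an action of betaine cannot be told apart. The betaine weeks came after the 8 weeks of diet. Any difference in age or in time after those weeks cannot be told apart from betaine either. Markers of the labelled tissue were present, with summed FPKM of 40.2 to 54.0 for 4 dentate gyrus genes in the 9 libraries, and 55.3 to 81.9 for 3 CA1 genes. Those of 3 CA3 genes summed to 34.1 to 47.9 in Con and HMD and to 18.4 to 19.5 in Bet+HMD. Most of that gap lay in 1 gene, Bok, at 30.2 FPKM in Con, 29.9 in HMD and 9.38 in Bet+HMD, while Grik4 was at 8.88, 7.65 and 8.27. No statement in the labels ties each library to a separate animal, so p-values measure the spread between these samples. In bulk tissue, fewer cells of a type and less RNA per cell cannot be told apart.

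Grm7 and Grm8 were the 2 genes whose Bet+HMD libraries lay apart from both other groups. The DNA just before each gene is shown for that reason. Such separation was common. By reads, 16.7% of the 31940 genes with a read had more in every Bet+HMD library than in any other library, and 8.68% had fewer. Promoter windows of 300 bases, from RefSeq on GRCm38.p6, were held for 4 of the 6 genes (Grm2, Grm3, Grm7 and Grm8). For Grm7 and Grm8 the window nearest to the start of the gene is printed below, up to the last base before that start. The sequences run 5′ to 3′ on the strand of the gene, and capitals mark a GC box, GGGCGG, a motif that Sp family factors bind. The Grm7 stretch lies at chr6:110645348-110645580 on the plus strand, and the Grm8 stretch at chr6:28135179-28135396 on the minus strand.
Grm7: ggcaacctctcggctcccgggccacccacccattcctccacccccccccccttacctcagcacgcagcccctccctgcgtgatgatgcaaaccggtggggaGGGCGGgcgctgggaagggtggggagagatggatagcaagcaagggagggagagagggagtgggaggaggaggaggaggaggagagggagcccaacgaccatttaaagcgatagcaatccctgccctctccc
Grm8: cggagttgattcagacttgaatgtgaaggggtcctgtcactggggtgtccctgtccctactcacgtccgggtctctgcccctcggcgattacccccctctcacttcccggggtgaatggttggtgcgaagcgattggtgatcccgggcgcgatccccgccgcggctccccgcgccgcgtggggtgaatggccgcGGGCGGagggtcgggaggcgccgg

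The whole windows were rich in G and C, at 66.7% for Grm7 and 67.0% for Grm8. CpG pairs numbered 15 in the Grm7 window and 33 in the Grm8 window, against a median of 7 over 32851 promoters of the same length. The GC box was searched on both strands and occurred in 35.7% of those promoters. In Grm7 it ended 126 bases before the start of the gene, and in Grm8 it ended 18 bases before it. A half-site of the cyclic AMP response element (TGACG, in 20.8% of all promoters) was not matched on either strand of these 2 windows. A TATA box (TATAAA, in 13.6%) and an E-box (CACGTG, in 7.15%) were not matched there either. The same traits were found in the windows of Grm2 and Grm3, whose groups overlapped. Those held 22 and 11 CpG pairs, 72% and 63.7% G and C, and 4 and 2 GC boxes, and none of the other motifs. Windows farther from the start of the gene were also held for Grm7 and Grm8. In Grm8 the window 757 bases away had TGACG, no GC box, 10 CpG pairs and 54% G and C. The Grm8 window 8752 bases away had none of the motifs, 2 CpG pairs and 43.3% G and C. The other Grm7 window, 69 bases away, had 1 GC box, 10 CpG pairs and 61% G and C.

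Before any comparison, the 6 genes differed widely in level. In Con the mean FPKM was 36.1 ± 5.06 (SD, n = 3) for Grm5, 15.9 ± 0.861 for Grm3, 10.2 ± 2.21 for Grm2, 7.70 ± 0.469 for Grm7, 1.91 ± 0.604 for Grm4 and 0.660 ± 0.0588 for Grm8. The order from Grm5 down to Grm8 held in HMD. In Con the libraries of Grm2 and Grm7 overlapped, and no other neighbours in the order did. In Bet+HMD, Grm7 at 11.7 ± 0.734 FPKM stood level with Grm2 at 11.3 ± 0.609, and these were again the only neighbours that overlapped. Grm8 rested on few reads, 96 to 151 per Con or HMD library and 202 to 239 per Bet+HMD library, while Grm5 had 5299 to 6816 in the 9 libraries. Spread between replicates was larger than counting error for Grm5, whose coefficient of variation in Con was 14.0% against 1.26% from read counts alone. For Grm8 in Con it was 8.92% against 9.48%, so the counting of reads was as large as the whole spread.

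**Figure D1:**
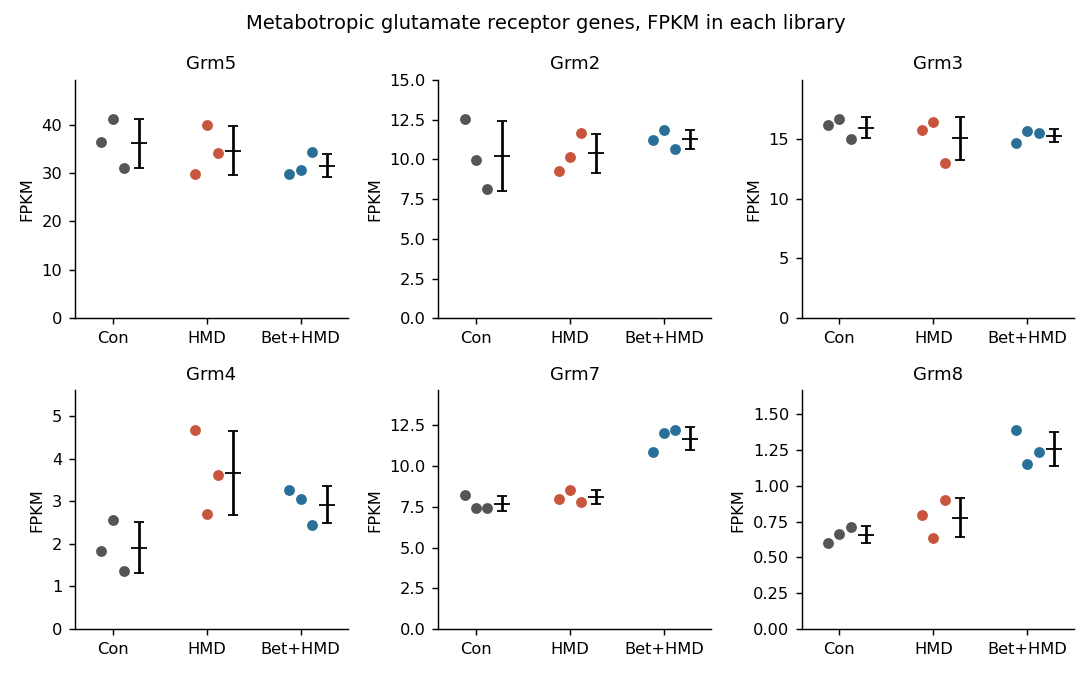
FPKM of the 6 receptor genes in each library of the later table (points), with the group mean and SD beside them (n = 3), on axes that start at 0. Bet+HMD lies above both other groups for Grm7 and Grm8, at 10.9 to 12.2 and 1.15 to 1.39 FPKM, and the groups overlap for Grm5, Grm2 and Grm3.

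The methionine diet was set against the standard diet to see which receptor genes the diet alone moved. Of the 6 genes, 5 reached the mean of 1 FPKM over the 6 libraries that was needed for a test, and Grm8 did not. None of the 5 passed an adjusted p under 0.05 in limma, and neither did any of the 12989 genes tested (0%). Grm4 had the largest difference, Con 1.80, 2.51 and 1.31 FPKM and HMD 4.64, 2.56 and 3.66 FPKM in the earlier table. All 3 HMD libraries were above all 3 Con libraries, HMD replicate 2 by a narrow margin. On the log2(FPKM + 1) scale, which understates the fold of low genes, the difference was 0.68 (SE 0.215, 95% interval 0.18 to 1.18). The limma p was 0.0142 before adjustment and 0.980 after it. An unadjusted p under 0.05 was reached by 4.56% of all genes tested, and groups that did not overlap were found for 9.37% of them. Grm4 alone of the 5 met either condition.

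The other 4 tested genes overlapped between Con and HMD. Grm5, the most abundant, measured 35.5, 40.3 and 30.1 FPKM in Con and 29.5, 38.8 and 33.5 FPKM in HMD, a log2 difference of -0.06 (95% interval -0.41 to 0.29). For the group II genes it was 0.04 in Grm2 (interval -0.35 to 0.43) and -0.09 in Grm3 (interval -0.36 to 0.19). Grm7 had the narrowest interval, -0.18 to 0.29 around 0.05. The signs of Grm2, Grm3 and Grm5 turned when 1 library was left out. The median over the 5 genes was 0.04, beside a median of -0.00380 over all genes tested. Grm8 stood at 0.579, 0.700 and 0.700 FPKM in Con and at 0.794, 0.626 and 0.864 FPKM in HMD, so its groups overlapped too.

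Other values moved together with Grm4. Grm4 is known for strong expression in cerebellar granule cells and is also made in the thalamus, so markers of 2 regions near the hippocampus, the thalamus and the striatum, were read in the same libraries. Summed FPKM of 6 thalamus markers (Tcf7l2, Lef1, Prkcd, Rgs16, Slc17a6 and Tnnt1) was 9.54, 13.5 and 13.4 in Con and 64.4, 18.1 and 27.9 in HMD. Among the HMD libraries replicate 1 was highest, replicate 3 next and replicate 2 lowest, as for Grm4, but Con replicate 3 had the lowest Grm4 of its group and not the lowest sum. Of the 6 markers, 3 lay apart between the groups, all 3 higher in HMD, and none was at 0 in every library. The 6 striatum markers summed to 17.0 to 26.7 FPKM in Con and 18.4 to 30.6 in HMD. Of these 1 lay apart, Drd2, a dopamine receptor, at 0.792 FPKM in Con and 2.65 in HMD, and none was at 0 in every library. Without HMD replicate 1 the log2 difference of Grm4 was 0.52. The part of the thalamus and striatum signals in this difference was not tested.

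**Figure D2:**
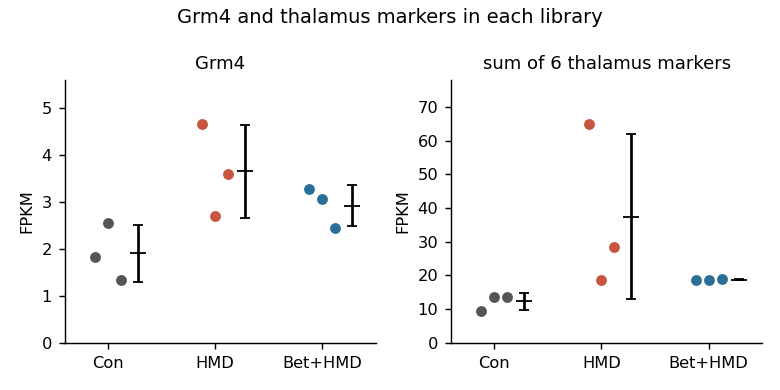
FPKM of Grm4 and of the sum of 6 thalamus markers in each library of the later table (points), with the group mean and SD beside them (n = 3), on axes that start at 0. HMD replicate 1, the leftmost HMD point, is the highest of the 9 libraries in both panels, with 4.67 and 65.1 FPKM.

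Betaine after the methionine diet was set against the diet alone to see which receptor genes differed with the treatment. Grm7 was higher in Bet+HMD, and it was the only one of the 6 genes tested that passed the threshold. It measured 7.99, 8.56 and 7.78 FPKM in HMD and 10.9, 12.0 and 12.2 FPKM in Bet+HMD. Every Bet+HMD library was above every HMD library. The log2 difference was 0.48 (SE 0.0773, 95% interval 0.30 to 0.66, adjusted p = 0.00232 in limma), and the ratio of the group means was 1.44. The call has to be read against its background, since 48.3% of the 13672 genes tested passed the same threshold and 60.1% had groups that did not overlap. Of the 5 receptors other than Grm8, which is given next, Grm7 was the 1 that passed and the 1 without overlap. The median log2 difference of these 5 was 0.03, and that of all genes tested was -0.03.

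Markers of cell types differed between the same libraries. Of 4 interneuron genes 3 were called lower in Bet+HMD than in HMD, among them Pvalb, a calcium-binding protein, from 22.1 to 11.8 FPKM. Their summed FPKM was 242 to 307 in HMD and 177 to 205 in Bet+HMD, and it was 242 to 263 in Con. Of 3 oligodendrocyte genes 2 were called lower, among them Mog, a myelin protein, from 39.3 to 19.9 FPKM, with sums of 559 to 749 in HMD and 543 to 556 in Bet+HMD. No marker of either list was at 0 in every library. The part of these markers in the Grm7 difference was not tested.

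Grm8, a close relative of Grm7 that also acts on nerve terminals, was the second gene without overlap. It stood at 0.797, 0.633 and 0.903 FPKM in HMD and at 1.39, 1.15 and 1.24 FPKM in Bet+HMD, a ratio of means of 1.62. It passed the filter on low values only through the Bet+HMD libraries, and such a gene had to be higher there. The log2 difference of 0.35 (SE 0.129) had an adjusted p of 0.0586 in limma. The value depended on the scale: it was 0.79 with voom on read counts, with an adjusted p of 0.00428, and 0.01 after quantile normalization, with an adjusted p of 0.958. Grm4, the third group III gene, went the other way in its means, from 3.66 ± 0.988 to 2.92 ± 0.432 FPKM (n = 3 each). Its groups overlapped, and the log2 difference was -0.23 (95% interval -0.62 to 0.16, adjusted p = 0.289).

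The most abundant receptor did not pass the test after betaine. Grm5 was 29.8, 39.9 and 34.2 FPKM in HMD and 29.8, 30.5 and 34.2 FPKM in Bet+HMD, so that the Bet+HMD libraries lay inside the range of the HMD libraries. Its log2 difference was -0.12 (95% interval -0.39 to 0.15), and it was 0.07 after scaling to TPM, in which each library sums to the same total, and 0.10 after quantile normalization. The group II genes gave 0.11 for Grm2 (interval -0.11 to 0.34) and 0.03 for Grm3 (interval -0.20 to 0.25). Grm3, which astrocytes also express, was 15.7, 16.4 and 13.0 FPKM in HMD and 14.7, 15.6 and 15.5 FPKM in Bet+HMD.

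Bet+HMD was also set against Con, to see how the treated mice differed from mice that never ate the methionine diet. This comparison shares its Bet+HMD libraries with the one above. Con libraries measured 8.24, 7.44 and 7.41 FPKM for Grm7, all below the lowest Bet+HMD library at 10.9 FPKM. The log2 difference was 0.55 (SE 0.0853, 95% interval 0.34 to 0.75, adjusted p = 0.00328 in limma), and the ratio of means was 1.52. Grm7 was the 1 gene called of 5 tested and the only one without overlap, where 39.7% of the 13643 genes tested were called and 55.1% did not overlap. Its log2 difference between HMD and Con in the earlier table had been 0.05.

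Grm4 came next by size in Bet+HMD against Con. It measured 1.83, 2.55 and 1.35 FPKM in Con and 3.27, 3.06 and 2.44 FPKM in Bet+HMD, so the groups overlapped at Con replicate 2. The log2 difference was 0.45 (SE 0.171, adjusted p = 0.0772), and it passed without Con replicate 2 (0.60, adjusted p = 0.0219) and after scaling to TPM (0.78, adjusted p = 0.0231). The 6 thalamus markers summed to 18.7, 18.7 and 19.0 FPKM in Bet+HMD and to 9.52, 13.6 and 13.7 FPKM in Con, and their part in the Grm4 value was not tested. As in the earlier comparison the order of the sums was not that of Grm4, since the Bet+HMD sums were nearly level. Grm8 missed the filter in this comparison. With no filter its log2 difference was 0.44 with an adjusted p of 0.0353, from Con libraries at 0.598, 0.667 and 0.715 FPKM. Grm5 gave -0.18, Grm2 0.15 and Grm3 -0.06, and none of these passed. The median over the 5 tested genes was 0.15, beside -0.04 over all genes.

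**Figure D3:**
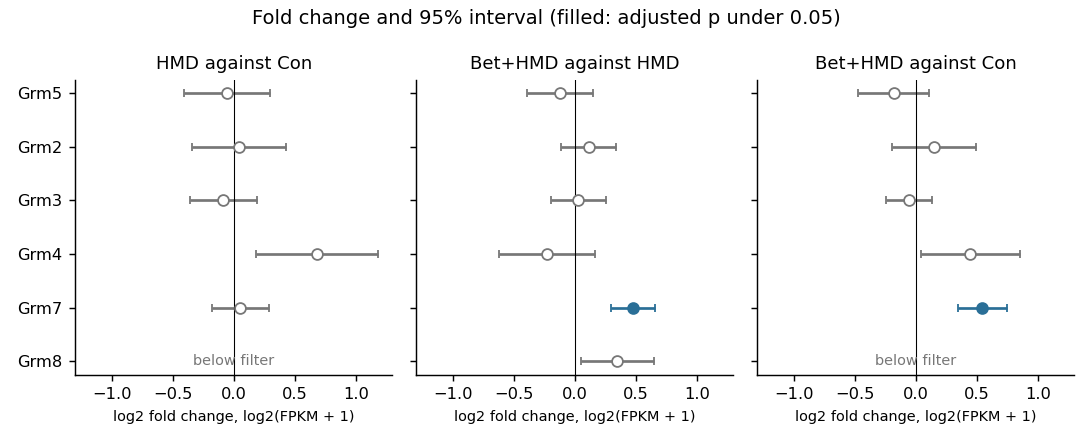
Log2 fold change of each receptor gene on the log2(FPKM + 1) scale with its 95% interval from limma, in the 3 comparisons (filled points passed an adjusted p under 0.05). Grm7 is the only filled point, at 0.48 against HMD and 0.55 against Con, and Grm8 was below the filter in both comparisons with Con.

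Ratios within a library do not depend on how the libraries were scaled to each other. Grm7 over Grm5 was 0.227, 0.181 and 0.240 in Con, 0.268, 0.215 and 0.227 in HMD, and 0.364, 0.394 and 0.356 in Bet+HMD. The Bet+HMD libraries were above all others in this ratio, and Con and HMD overlapped. Grm8 over Grm7 gave no such separation, with 0.0726 to 0.0965 in Con, 0.0739 to 0.116 in HMD and 0.0959 to 0.128 in Bet+HMD. Grm3 over Grm2, the balance within group II, overlapped in all 3 groups at 1.11 to 1.84.

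The summed FPKM of the 6 genes was 72.5 ± 7.90 in Con, 72.6 ± 5.23 in HMD and 73.9 ± 2.54 in Bet+HMD, so the total differed by less than the spread between replicates. Within the sum, Grm5 held 49.7 ± 2.39% of the sum in Con, 47.5 ± 3.65% in HMD and 42.6 ± 2.01% in Bet+HMD, and Grm7 held 10.7 ± 1.10%, 11.2 ± 0.456% and 15.8 ± 0.504%. The 3 group III genes together held 14.2 ± 0.662% in Con, 17.4 ± 2.28% in HMD and 21.5 ± 0.578% in Bet+HMD. No 2 of these 3 ranges overlapped, at 13.6 to 14.9%, 15.2 to 19.7% and 20.8 to 21.9%. The step from Con to HMD lay mostly in Grm4, whose share was 2.60% and then 5.12%, and that from HMD to Bet+HMD lay mostly in Grm7. The group II share stayed within 33.9 to 37.9% in the 9 libraries. These shares are a description, with no test.

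**Figure D4:**
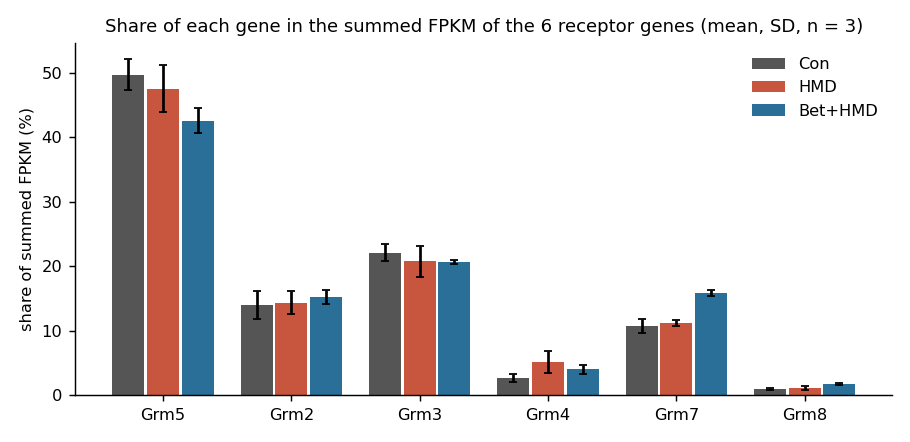
Share of each receptor gene in the summed FPKM of the 6 genes, as a percent per group of the later table (bars, mean; error bars, SD; n = 3; axis from 0). The Grm5 bar is lowest in Bet+HMD at 42.6% and the Grm7 bar is highest there at 15.8%.

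Some of the receptor genes are among the longest in the genome, and other annotated genes lie inside them. Grm7 spans 921650 bases of chromosome 6 (110645581 to 111567230, plus strand), and Grm8 spans 860060 bases of the same chromosome (27275119 to 28135178, minus strand). Grm5 lies on chromosome 7 (87584168 to 88134907, plus strand), Grm3 on chromosome 5 (9485541 to 9725170, minus strand), Grm4 on chromosome 17 (27422387 to 27521403, minus strand) and Grm2 on chromosome 9 (106643095 to 106656082, minus strand). Of 15 annotated genes that overlap the 6, 12 lie in introns alone. One of them, Gm44846, was picked out after its values were seen. It lies in an intron of Grm5 on the same strand (chromosome 7, 88119158 to 88122400) and had 9 to 29 reads in Con, 16 to 41 in HMD and 219 to 277 in Bet+HMD. Its level was 0.282 ± 0.184, 0.479 ± 0.300 and 4.46 ± 0.572 FPKM in these groups, while Grm5 itself overlapped in all 3. Of the 10 intronic genes with a read in any library, 4 had more reads in every Bet+HMD library than in any other library. All 4 lie inside Grm5, and 1 of the 4 rested on 1 or 2 reads. That 0 had fewer says little. Apart from Gm44846, each of the 10 was at 0 in some Con or HMD library and could not be lower. Several had reads in Bet+HMD alone and entered the 10 only through that group. Of the 31940 genes with a read in the 9 libraries, 16.7% had more and 8.68% had fewer by the same measure. In Grm7 the antisense gene Gm20387 overlaps an exon at the start of the gene. It was listed at 1.51 to 2.42 FPKM in Con, 2.03 to 3.29 in HMD and 1.29 to 2.09 in Bet+HMD, on 40 to 90 reads. No source says if reads were counted by strand, and the reads of this pair are therefore uncertain.

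Signalling genes downstream of the receptors were read from lists of 40 genes, of which 39 reached the filter in each comparison. Between HMD and Con 0 of 39 passed the threshold in limma, and 2 of 39 had an unadjusted p under 0.05. These were Plcb4, a phospholipase C of the Gq arm, at 3.46 ± 0.525 FPKM in Con and 7.75 ± 3.53 in HMD (log2 difference 0.90, adjusted p = 0.926), and Grip1, a scaffold with PDZ domains, at 3.00 and 2.18 FPKM (-0.33, adjusted p = 0.980). Plcb4 measured 11.7, 4.85 and 6.71 FPKM in the 3 HMD libraries, whose thalamus markers summed to 64.4, 18.1 and 27.9 FPKM, and without HMD replicate 1 its log2 difference was 0.60. The part of those markers was not tested. The smallest p of the Gi/o arm belonged to Kcnj9 (-0.44), a subunit of the potassium channels that Gi/o proteins open. That of the enzymes of N-acetylaspartylglutamate (NAAG), the peptide agonist of Grm3, belonged to Folh1 (0.15), which breaks the peptide down. Neither passed, with adjusted p = 0.980 for both.

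Between Bet+HMD and HMD 16 of the 39 passed, 5 higher and 11 lower, which is 41.0% where all genes gave 48.3%. In the Gq arm 2 of 9 were lower and 0 higher: Gna11, a Gq family alpha subunit, fell by 0.41 on the log2 scale (SE 0.0874, adjusted p = 0.00774), and Rgs4, which speeds the shut-off of G proteins, fell by 0.35. Both calls were lost after TPM scaling and after quantile normalization, and that of Rgs4 also without Bet+HMD replicate 2. In the Gi/o arm 5 of 13 were lower and 1 higher. Gnai1, an inhibitory alpha subunit, fell by 0.81 (SE 0.127), from 98.5 to 55.0 FPKM, Adcy5, an adenylyl cyclase, fell by 0.52 and Gnai3 fell by 0.48. The 1 gene that was higher was Kcnj9, from 12.1 to 22.8 FPKM (log2 difference 0.90, SE 0.181, adjusted p = 0.00595). All 4 kept their call under each of the 14 alternatives.

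Partners and scaffolds of the receptors split evenly, with 4 of 14 higher and 4 lower in Bet+HMD than in HMD. Shank1, a scaffold of the postsynaptic density that links Homer to other proteins, had the largest rise, from 39.6 to 75.4 FPKM (0.92, SE 0.0943, adjusted p = 0.000367). Elfn2, an adhesion protein that binds group III receptors across the synapse, rose by 0.60, and Grip1 by 0.34. Homer3, of the Homer family that binds group I receptors, fell by 0.90 (SE 0.121) from 8.50 to 4.08 FPKM. Necab2, a calcium-binding protein that interacts with Grm5, fell by 0.79, and Siah1a, a ubiquitin ligase of group I receptors, by 0.77. The call of Grip1 was lost under 8 of the 14 alternatives and those of the other 5 under none. Leaving out 1 library ended the calls of Grip1 (HMD replicate 1 or 2, or any Bet+HMD replicate), Shank2 (HMD replicate 1 or any Bet+HMD replicate) and Adcy2 (HMD replicate 3, or Bet+HMD replicate 1 or 2). Homer1 and Homer2 gave -0.10 and -0.05, and the groups overlapped for both. Pick1, which binds the tail of Grm7, was 0.991 FPKM in HMD and 1.52 in Bet+HMD (0.34, adjusted p = 0.0817), and Elfn1, the closest relative of Elfn2, was 4.80 and 5.47 FPKM (0.19, adjusted p = 0.436). None of the 3 NAAG enzymes tested passed, the smallest p being that of Rimklb (-0.10, adjusted p = 0.476), a NAAG synthase.

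**Figure D5:**
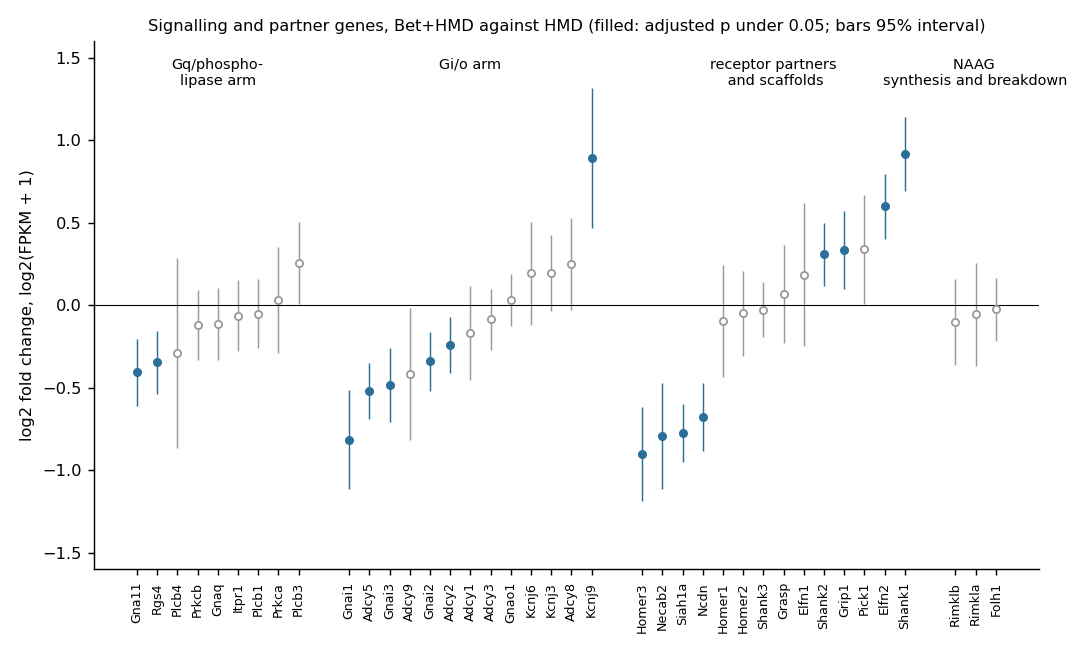
Log2 fold change of 39 signalling and partner genes in Bet+HMD against HMD on the log2(FPKM + 1) scale, ordered within each list, with the 95% interval from limma (filled points passed an adjusted p under 0.05). The filled points are 5 above and 11 below the zero line, from Shank1 at 0.92 to Homer3 at -0.90.

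Between Bet+HMD and Con 13 of the 39 passed, 2 higher and 11 lower, or 33.3% where all genes gave 39.7%. Plcb4 was the 1 higher gene of the Gq arm, from 3.54 to 5.92 FPKM (0.62, SE 0.107, adjusted p = 0.00495), beside thalamus sums of 9.52 to 13.7 and 18.7 to 19.0 FPKM whose part was not tested, and Gna11 (-0.47) and Rgs4 (-0.39) were lower. In the Gi/o arm 5 of 13 were lower and 0 higher, led by Gnai1 (-0.72), Gnai3 (-0.49) and Adcy5 (-0.46). Among the partners Shank1 was higher (0.82), and Homer3 (-1.10), Necab2 (-0.62) and Ncdn (-0.61), a cytoplasmic protein that binds Grm5, were among the 4 that were lower. Leaving out 1 library ended the calls of Rgs4 and Siah1a (Con replicate 1 or any Bet+HMD replicate), Adcy5 (Bet+HMD replicate 1 or 3) and Adcy9 (Bet+HMD replicate 1 or 2). After quantile normalization the calls of Gna11, Rgs4, Gnai1, Gnai2, Adcy5, Adcy9, Necab2, Siah1a and Ncdn were lost. After TPM scaling those of Gna11, Rgs4, Gnai2, Adcy5, Adcy9 and Siah1a were lost. With all 3 groups in one fit, Adcy9 and Plcb4 (adjusted p = 0.0591 for Plcb4) lost their calls. The replicate block ended those of Rgs4, Adcy9 and Siah1a, and fitting with no filter that of Siah1a. Those of Gnai3, Homer3 and Shank1 were kept under all 14 alternatives. No NAAG enzyme passed, and Folh1 had the smallest p (0.14, adjusted p = 0.300). Directions over the list depended on scaling. After TPM scaling, which moved the median of all genes to 0.16 against HMD and 0.17 against Con, the split was 10 higher and 7 lower against HMD and 7 higher and 5 lower against Con. After quantile normalization it was 7 and 7, and 7 and 2. Relative to that median, Grm7 under TPM stood 0.55 higher against HMD and 0.63 higher against Con.

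The genes most alike to each receptor in pattern were taken by the Pearson correlation of log2(FPKM + 1) over the 9 libraries, among 13464 genes. They were Gm9821 (0.992) and Ubn2 (0.990) for Grm7, Chrm2 (0.981) and Pxk (0.965) for Grm4, and A830018L16Rik (0.966) and Plppr5 (0.960) for Grm5. For Grm3 they were Gm9954 (0.983) and Arhgef6 (0.938), and for Grm2 Dalrd3 (0.938) and Noc2l (0.933). The libraries share depth and the separation of Bet+HMD, so these values describe these 9 libraries alone. Grm8, whose mean over the 9 libraries was under 1 FPKM, was left out of these correlations. Between the other receptors themselves the correlation ran from -0.35 (Grm5 with Grm7) to 0.44 (Grm2 with Grm7).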

How the data were processed

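RNA sequencing of mouse hippocampus gave 9 libraries. Per the study's methods, ribosomal RNA was depleted and stranded paired-end libraries were made. The submitters' processing notes name HISAT2 2.1.0 and featureCounts 1.5.0-p3 with mm10. The authors deposited FPKM per gene in 2 tables, with gene length in bases (another unit, used as given). FPKM times length and library size gave whole reads for 100% of values in every column, so depth was known. The allowance was 0.01 of a read, and wider in proportion to the count for genes with many reads. Coefficients of variation from read counts cover counting error only, since reads carry no molecular identifiers, and the 95% intervals are those of limma, from the spread between libraries.

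Limma 3.58.1 in R 4.3.3 (trend, two-sided) was run on log2(FPKM + 1) for each pair of groups, over genes with a mean of at least 1 FPKM. The study's own count-based tool was replaced because the deposited values are FPKM. The recovered reads entered only as an alternative, through voom. Benjamini-Hochberg adjustment covered every gene in the fit, and called means an adjusted p under 0.05. An exact permutation test of 3 against 3 cannot go below p = 0.1. The fit was tested on simulated data. The genes, lists and tests were chosen with earlier results of these data known. Besides the 6 receptors, up to 3 genes with the largest change in each direction among those called were named per list and comparison, or else the gene with the smallest p. A few others were named after their values were seen: Homer1, Homer2, Pick1, Elfn1, Adcy2, Adcy9, Gnai2, Shank2 and Gm44846. Names of genes came from the tables, and promoters from RefSeq (GRCm38.p6). Some listed genes are not reported here and were left out of the counts. Every pair of replicates differed by more than sampling noise, for which the chi-square of reads per degree of freedom is near 1. In the later table it was 3.00 to 4.21 for pairs of Bet+HMD libraries. For pairs within Con or within HMD it was 11.8 to 42.2. Replicates were thus closest in Bet+HMD, and the reason was not tested.

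Alternatives were a pseudocount of 0.1, no filter, TPM, median ratio centring, quantile normalization, limma voom on recovered reads, all 3 groups in one fit, a replicate block, leaving out each library, and the later table for HMD against Con.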

Additional observations from a re-analysis of the deposited data

How the results depend on the processing

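Grm7 was called in both comparisons with Bet+HMD under every alternative run, with log2 differences of 0.45 to 0.71 against HMD and 0.52 to 0.80 against Con. In HMD against Con no receptor and no signalling gene was called under any of the 15 alternatives. The number of receptors called in Bet+HMD against HMD was 1, and it was 3 after TPM scaling (Grm2, Grm7 and Grm8), 2 with median ratio centring and 2 with voom (Grm7 and Grm8). Grm8 entered the test only through the libraries in which it was high, which fixed its direction, so its calls add nothing to these counts. Leaving out each library in turn gave 1 each time. Against Con it was 1, and it was 2 with no filter on low values (Grm7 and Grm8), 2 after TPM and 2 with voom (Grm4 and Grm7), and 1 to 3 when a library was left out: Grm4, Grm7 and Grm8 without Con replicate 2, and Grm5, Grm7 and Grm8 without Con replicate 3. Grm5 then gave -0.29 with an adjusted p of 0.0496. The causes were not tested, except that leaving out a library also changes which genes reach the filter.

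Signs turned only in receptors that were not called before any alternative was applied. Grm5 was among them, though it was called in Bet+HMD against Con without Con replicate 3. Against Con the HMD difference of Grm2 was -0.10 to 0.19 when a library was left out, that of Grm3 -0.15 to 0.0036 and that of Grm5 -0.16 to 0.042. In Bet+HMD against HMD that of Grm3 was -0.069 to 0.089 when a library was left out, and that of Grm5 was 0.073 after TPM and 0.10 after quantile normalization. In Bet+HMD against Con, Grm3 gave 0.16 after TPM, 0.10 after quantile normalization and 0.021 with voom, and Grm5 gave 0.034 and 0.059 after the first 2. The count of signalling genes called stayed within 1.5 times of 16 and of 13 under every alternative.

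With the replicate block 0, 1 and 1 receptors were called in HMD against Con, Bet+HMD against HMD and Bet+HMD against Con, Grm7 in the last 2, and 0, 14 and 10 signalling genes. The numbers were not taken as pairs: same-numbered libraries correlated in their deviations at -0.06 to 0.35, -0.15 to 0.02 and -0.18 to -0.05. Depth limits Grm8 most, with 96 to 239 reads per library.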
